A study of Mus musculus with 24 samples.

Results

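The soleus (SOL) of old control (OC) mice was compared with that of young control (YC) mice over all 18795 genes of the table, using 6 of the 24 libraries of the series. All mice were male C57BL/6 mice that were purchased and housed singly. YC mice were labelled as 9 weeks old and OC mice as 84 weeks old, and neither group was trained. The young exercised (YE) and old exercised (OE) mice, of the same labelled ages, ran on a treadmill for 4 weeks. Every group had 3 libraries of the SOL and 3 of the gastrocnemius (GAS), each from the whole muscle of 1 mouse. The members of this comparison were set by the labels alone, and no measured value was used to choose a library.

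The soleus is a small calf muscle that holds the body upright, and its fibers are mostly slow or fast oxidative. Each fiber is wrapped in a basement membrane and set in a collagen network that fibroblasts build and that carries the force to the tendon. With age this muscle is known to lose mass and force, and its matrix, nerve endings and daily rhythm are known to change. The labelled muscle was checked first. Myh7, the slow myosin heavy chain, was at 2850, 2174 and 2856 FPKM in the YC libraries and 2499, 2197 and 3206 FPKM in the OC libraries. Myh2, the myosin of fast oxidative fibers, ranged from 2595 to 3275 FPKM over the 6 libraries, and Tnnt1, the slow troponin T, from 1880 to 3145 FPKM. The defining markers of the soleus were therefore present in every library, and the groups overlapped for all of these genes.

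Total FPKM ran from 386616 to 425265 per library, with 10781 to 11213 genes at 1 FPKM or more. Read counts were not analysed here, so the depth is unknown and its effect on the error cannot be given. Some libraries stood apart from others of their group. Myh4, the myosin of the fastest fibers, was at 240 FPKM in YC replicate 1 and 264 FPKM in OC replicate 3, and between 14.8 and 25.8 FPKM in the other 4. YC replicate 2 was the highest in genes of fat and of the matrix: the fatty acid synthase gene Fasn was at 63.2 FPKM there against 15.2 and 8.83 FPKM in the other YC libraries, and the adipocyte hormone gene Adipoq at 43 FPKM against 11.3 and 10.5 FPKM. Fasn and Adipoq were picked after their values were seen. Beside many genes below, only the loss of a call without YC replicate 2 is given, although other libraries mattered too. Chrnd, Calr, Megf10, Cblb, Igf2r and Mfap5 were not called in 5 of the 6 fits that left out 1 library. Col22a1, Col1a2, Plin5, Pdgfra, Tie1 and Efemp2 were not called in 4 of these fits, and Sparc, Gadd45a and Egr2 in 3. In whole muscle, fewer cells of a type and less RNA per cell cannot be told apart.

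A total of 820 genes changed between OC and YC at an adjusted p under 0.05 (limma, Benjamini-Hochberg over all 18795 genes), which is 4.36% of the genes. Of these, 543 were upregulated, 2.89% of all genes, and 277 were downregulated, 1.47%. These shares are the background for the counts of called genes in the lists below. The changes were small. The median log2 fold change was 0.34 among the rises, a 1.26-fold difference, and -0.40 among the falls, a 1.32-fold difference. All fold changes are differences on the scale log2(FPKM + 1) and understate the change of genes at low levels. Of the called genes, 138 changed over 1.5-fold, with 74 rises and 64 falls, and 34 changed over 2-fold, with 9 rises and 25 falls. At the thresholds of the study, a change of more than 1.5-fold with an unadjusted p under 0.05, there were 264 differentially expressed genes (DEGs), 1.40% of the genes, with 106 upregulated and 158 downregulated. Without quantile normalization, 307 genes rose and 349 fell, so that rises made up 46.8% of the calls in place of 66.2%. The 3 OC libraries did not overlap the 3 YC libraries for any of the 820 genes, whereas 23.0% of all genes had groups that did not overlap. This follows largely from calling the genes on these same libraries and is no separate evidence.

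The number of genes called depended on single libraries. It was 328 without OC replicate 3, 389 without OC replicate 4, 374 without OC replicate 5, 477 without YC replicate 1, 292 without YC replicate 2 and 837 without YC replicate 3. Of the 81 called genes that the naming rule took, 38 lost their call without OC replicate 3, 39 without OC replicate 4, 29 without OC replicate 5, 27 without YC replicate 1, 41 without YC replicate 2 and 13 without YC replicate 3, and 34 kept it in all 6 fits. A fit of these 6 libraries alone, which has fewer degrees of freedom for the spread, called 8 genes. The cause of this drop was not tested. The other 6 SOL libraries, of the trained mice, gave the rest of the estimate of the spread in the fit used.

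**Figure D1:**
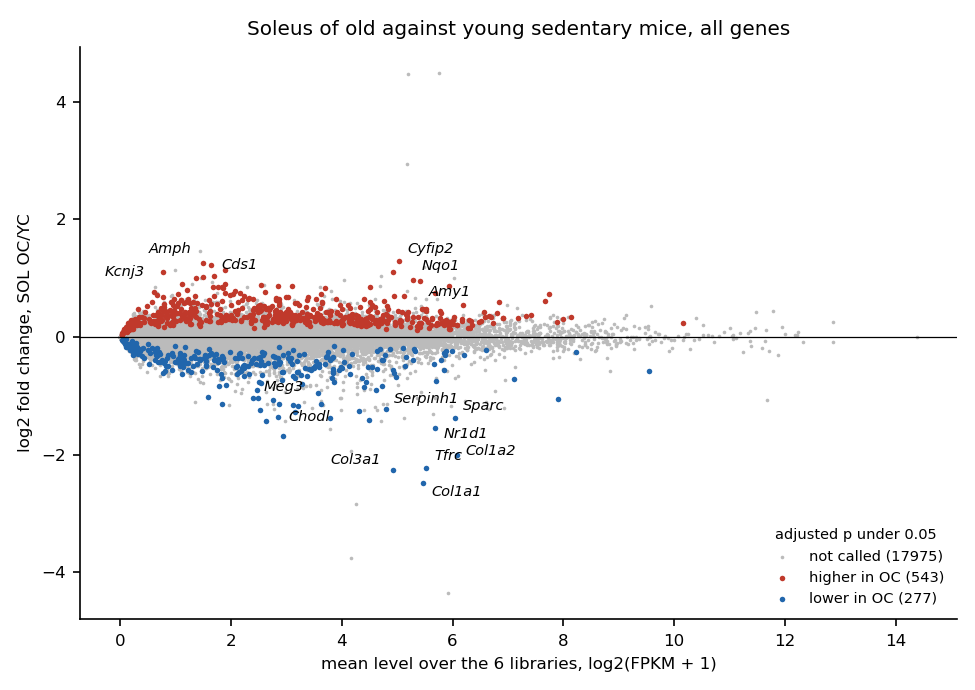
Each point is a gene, placed by its mean level in SOL OC and SOL YC as log2(FPKM + 1) on the horizontal axis and by its log2 fold change of OC/YC on the vertical axis, with the 820 genes at an adjusted p under 0.05 coloured. Among the coloured genes, collagens, Tfrc and Nr1d1 form the lower edge, while the largest rise is 1.28.

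Of the 12 largest falls, 9 were genes of the extracellular matrix. Fibrillar collagens are secreted as procollagen trimers, trimmed, and cross-linked into fibers, while the network collagen IV and the beaded filaments of collagen VI lie at the basement membrane. All 18 collagen chains measured had a log2 fold change below 0, and 11 of these fell, against 1.47% of all genes. The median log2 fold change was -1.20 over the list and 0 over all genes. The summed level of the list was 393.1, 582.4 and 326.9 FPKM in the YC libraries and 121.3, 99.31 and 178 FPKM in the OC libraries. YC replicate 2 was the highest of all, and the groups did not overlap. Many of these chains are in a list that the study itself made from these samples, so their direction is not independent evidence.

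Col1a1 (gene ID 12842, GRCm38.p6 chromosome 11, 94936224 to 94953042) codes for the alpha1 chain of collagen I, the main fibril of tendon and muscle. It was at 63.6, 105 and 51.1 FPKM in YC and 10.4, 8.33 and 21.5 FPKM in OC, or 73.2 ± 28.1 against 13.4 ± 7.10 FPKM (SD, n = 3 each). This was the largest fall among the genes at 1 FPKM or more, with a log2 fold change of -2.49 (standard error, SE, 0.44, limma adjusted p = 0.0187). Its adjusted p rose to as much as 0.0673, without OC replicate 3, and the gene was also not called without OC replicate 4 or YC replicate 2. Its partner chain Col1a2 went from 90.3, 152 and 75.7 FPKM to 23.1, 17.4 and 39.6 FPKM, a log2 fold change of -2.002 that did not pass without YC replicate 2 (limma adjusted p = 0.0934). Both chains of collagen I thus varied most within the groups, and YC replicate 2 was highest for each.

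Col3a1, the chain of the thin fibrils of the endomysium, separated the groups more evenly. It was at 51.3, 52.4 and 41.4 FPKM in YC and 9.05, 7.58 and 13.2 FPKM in OC, with a log2 fold change of -2.26 (SE 0.32, limma adjusted p = 0.0114), and it passed without each library in turn. The same held for Col5a3, a chain of collagen V, which sets the width of fibrils, at 8.58, 10.5 and 5.49 FPKM against 2.15, 1.81 and 2.79 FPKM. It also held for Col6a1, at 27.4, 39.1 and 27.5 FPKM against 11, 9.57 and 13.6 FPKM, and for Col15a1, a collagen of the outer basement membrane, at 10.9, 12.4 and 9.68 FPKM against 3.86, 4.02 and 5.24 FPKM. Collagens III, V, VI and XV each had a chain that was called in all 6 fits that left out 1 library. Col22a1, a collagen of the junction between muscle and tendon, fell by 1.37 on the log2 scale but did not pass without YC replicate 2 (limma adjusted p = 0.116). Col4a2, a chain of collagen IV, had a log2 fold change of -1.25 and did not pass (adjusted p = 0.0526 from limma).

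The enzymes that fold, trim and cross-link collagen fell to a lesser degree, with 10 of 26 called, none called upward and a median log2 fold change of -0.36. Serpinh1, the chaperone of procollagen in the endoplasmic reticulum, was the most even of them. It was at 37.8, 40.6 and 34.8 FPKM in YC and 15.6, 15.8 and 16.1 FPKM in OC, a log2 fold change of -1.23 (SE 0.12, limma adjusted p = 0.00345). P4ha1, which hydroxylates prolines of collagen, fell by 0.47, Adamts2, which removes the amino-terminal propeptide, by 0.70, Pcolce, which speeds the removal of the other propeptide, by 0.90, and Loxl2, a cross-linking oxidase, by 1.08 on the log2 scale. Of these 4, P4ha1 passed without each library in turn, and the others did not pass without YC replicate 2, among other libraries.

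All 36 matrix glycoproteins and proteoglycans measured were also below 0, with a median log2 fold change of -0.49, and 10 of these fell. Eln encodes elastin, the core of elastic fibers, and was at 18.3, 15.1 and 14.3 FPKM in YC and 7.02, 5.49 and 7.67 FPKM in OC, a log2 fold change of -1.14 (SE 0.13, limma adjusted p = 0.00498). The proteins around elastin moved with it. Fbn1, the fibrillin of its microfibrils, fell by 1.17, Mfap2, a microfibril protein, by 0.82, Efemp2, which helps elastin to assemble, by 0.60, and Fbln5, which ties elastic fibers to cells, by 0.45 on the log2 scale. Eln and Mfap2 passed without each library in turn, while Fbn1, Efemp2 and Fbln5 did not pass without YC replicate 2 (limma adjusted p = 0.0509, 0.0594 and 0.0552). Sparc, a collagen-binding protein counted in the list of muscle-secreted factors as well, went from 80.7, 119 and 80.9 FPKM to 27.9, 45.1 and 35.6 FPKM. Its log2 fold change was -1.39, and the groups did not overlap, but it did not pass without YC replicate 2 (limma adjusted p = 0.0612).

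Genes that break down the matrix, and those of the signal that drives its synthesis, had few calls. The 18 matrix proteases and inhibitors had a median log2 fold change of -0.20, with 14 below 0. Of the 18, 1 fell, against 1.47% of all genes. It was the protease gene Adamts12, at 0.651, 1.08 and 0.712 FPKM in YC against 0.290, 0.186 and 0.346 FPKM in OC. Adamts12 was not called without OC replicate 4. Mmp2, a protease of denatured collagen, had a log2 fold change of -1.04 and did not pass (adjusted p = 0.0754 from limma). None of the 22 ligands, receptors and early targets of TGF-beta, the main inducer of collagen genes, was called, and their median log2 fold change was -0.05.

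Most markers of the cells that make matrix were also below 0. The lists of fibroblast and of tendon genes themselves hold matrix genes, so their direction is in part the same result. Over the whole list of 16 fibroblast genes, the summed level was between 936.4 and 1335 FPKM in YC and between 697.5 and 801.5 FPKM in OC. Of these genes, 15 were below 0 and 3 fell, against 1.47% of all genes. The 3 were Col15a1, a collagen chain counted above, Pdgfra, the receptor that marks these cells, and Mfap5, a microfibril protein. Pdgfra was at 7.44, 8.33 and 8.98 FPKM in YC and 4.91, 4.76 and 5.16 FPKM in OC, and neither Pdgfra nor Mfap5 passed without YC replicate 2 (limma adjusted p = 0.0598 and 0.104). The list of 16 tendon and cartilage genes summed to 478, 817.8 and 350.2 FPKM in YC and 257, 208.1 and 382.7 FPKM in OC, so the groups overlapped, and 4 of its genes fell, among them the cartilage protein gene Cilp2 and the keratocan gene Kera. No marker of either list was at 0 in all libraries. The part of these cells in the fall of the matrix genes was not tested. Without YC replicate 2, the median of the collagen chains was -1.01 with 4 of 18 called, 3 collagen enzymes and 3 glycoproteins were called, and none of the tendon genes was. Without OC replicate 3 or OC replicate 4, 4 collagen chains were called as well.

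**Figure D2:**
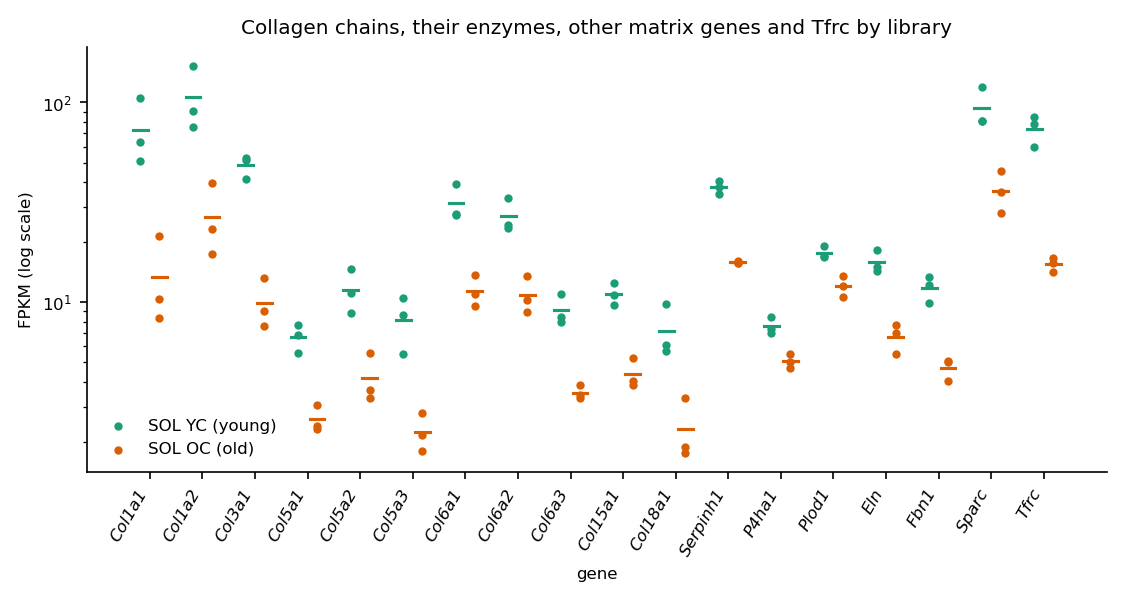
Levels of matrix genes and Tfrc in each SOL YC and SOL OC library, in FPKM on a log axis, with a horizontal bar at the group mean. The 3 OC libraries sit below the 3 YC libraries for each gene drawn, and the highest point for both chains of collagen I is YC replicate 2.

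Tfrc encodes the transferrin receptor, through which cells take up iron, and it was the third largest fall. Its messenger carries iron-responsive elements in the 3′ untranslated region, hairpins with a bulged C and a CAGTG loop, to which iron regulatory proteins bind and so protect the messenger when iron is low. Matches to the letters of these elements are shown because the elements are known to control this transcript. Whether each match forms the hairpin was not tested. A search of the sense strand of Tfrc-201, after its stop codon, for a C followed by any 5 bases and CAGTG found 5 matches on chromosome 16 of GRCm38, printed 5′ to 3′ with the motif's fixed letters in capitals.
Tfrc chr16:32631217-32631246, plus strand: ataattatCggaagCAGTGccttccataat
Tfrc chr16:32631596-32631625, plus strand: cacattatCgggagCAGTGtcttccataat
Tfrc chr16:32631643-32631672, plus strand: gtttttgcCtaccaCAGTGtctatatcgga
Tfrc chr16:32631661-32631690, plus strand: gtctatatCggagaCAGTGatctccatatg
Tfrc chr16:32631708-32631737, plus strand: gtaattatCgggaaCAGTGtttcccataat
The third and the fourth stretch overlap. In the last 2461 bases of transcripts at least that long, 1 per gene and coding bases included where they fall in that window, 63.9% held at least 1 match and 0.976% held as many as Tfrc. The matches describe the transcript and are not a cause of its change.

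Tfrc (gene ID 22042, chromosome 16, 32608896 to 32632794) was at 59.5, 84.8 and 77.8 FPKM in YC and 14.1, 16.6 and 15.6 FPKM in OC, or 74.0 ± 13.0 against 15.5 ± 1.26 FPKM (SD, n = 3 each). The lowest YC library was well above the highest OC library. The log2 fold change was -2.23 (SE 0.19, limma adjusted p = 0.00205), and the adjusted p stayed between 0.00267 and 0.0120 without each library in turn. Of 22 genes of iron uptake, storage and export, 1 other changed. Hfe, which binds the receptor and takes part in iron sensing, rose from 5.86, 5.69 and 6.39 FPKM to 8.31, 7.87 and 7.56 FPKM, but did not pass without YC replicate 2 (limma adjusted p = 0.0754) or without any of 3 other libraries. The ferritin genes Fth1 and Ftl1, which code for the iron store, had log2 fold changes of -0.09 and -0.04 and did not pass. Hamp, the liver hormone of iron balance, was listed at 0 in all 6 libraries.

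The daily clock of a cell is a loop in which Arntl and its partner Clock switch on the Per, Cry and Nr1d1 genes, whose products then repress the loop. Nr1d1 represses Arntl through sites in its promoter, and Dbp is a driven output. The genes of this loop peak at different hours, and the time of day at which the muscles were taken is not given in the sources used here. Of 21 clock genes, 4 rose and 3 fell, against 2.89% and 1.47% of all genes. Nr1d1 was at 77.1, 79.5 and 67.7 FPKM in YC and 26.0, 22.4 and 28.3 FPKM in OC, with a log2 fold change of -1.54 (SE 0.24, limma adjusted p = 0.0129). Dbp fell by 0.75 on the log2 scale, from 58.5, 69.7 and 62.5 FPKM to 36.9, 36.1 and 40.4 FPKM. The activator Arntl, picked here after its values were seen, was at 5.12, 4.06 and 4.38 FPKM in YC and 2.39, 2.44 and 3.30 FPKM in OC. Its log2 fold change of -0.50 passed (adjusted p = 0.0468 from limma) but did so in no fit that left out a library.

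Among the Cry and Per genes of the repressing arm, Cry2, Cry1 and Per2 rose. Cry2 rose by 0.61, from 20.9, 22.1 and 19.4 FPKM to 32.9, 29.0 and 32.5 FPKM. Cry1 rose by 0.49, and Per2 by 0.37, each with groups that did not overlap, although Cry1 was not called without OC replicate 3 or YC replicate 2 and Per2 was not called in 4 of the 6 fits that left out 1 library. Without YC replicate 2 the list had 3 rises and 2 falls. Per1, Per3, Clock and Nfil3, also seen before they were picked, did not pass.

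RefSeq promoters of GRCm38.p6 were found for 5 of the 7 clock genes called and searched on both strands for CACGTG, the E-box that Arntl and Clock bind, for TTATGNAA, a site of Dbp and its relatives, and for AGGTCA, the half-site of Nr1d1. These letters are in 7.15%, 3.38% and 16.3% of all promoters. Cry1 held the E-box, shown here with the motif in capitals, 5′ to 3′ on the minus strand.
Cry1 chr10:85185079-85185144, minus strand: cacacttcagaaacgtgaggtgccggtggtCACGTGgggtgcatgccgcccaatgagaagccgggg
The Arntl promoter held AGGTCA at 31 bases after its start, which is not printed here. None of the letters searched was in the windows of Nr1d1, Dbp and Cry2, which says nothing of sites outside them.

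Of the 21 clock genes, 2 rose and 1 fell in OE/YE of the trained mice. Nr1d1 was at 42.2, 25.5 and 24 FPKM in YE and 27.4, 23.4 and 17.5 FPKM in OE, so the groups overlapped, and the log2 fold change of OE/YE was -0.35 (adjusted p = 0.507 from limma). Arntl was at 2.33, 2.34 and 2.43 FPKM in YE and 3.83, 4.95 and 4.87 FPKM in OE, a rise of 0.77 (adjusted p = 0.0167 from limma), the opposite of its direction in control mice. The test of the difference between these age effects was not passed by Arntl (adjusted p = 0.169), Nr1d1 (0.573), Cry1 (0.350) or Per2 (0.347), all from limma. Dbp fell in trained mice too, by 1.21 on the log2 scale.

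**Figure D3:**
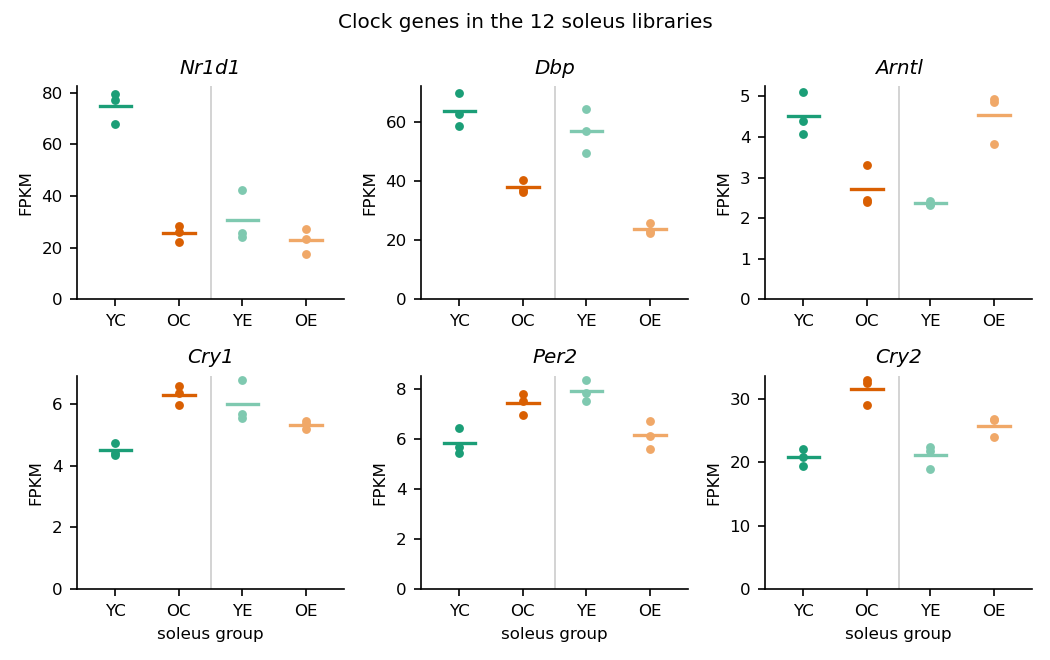
Levels of clock genes in each SOL library of the 4 groups (YC, OC, YE, OE), in FPKM, 1 panel per gene, with a bar at the group mean. Nr1d1 is high in the 3 YC libraries and low in the other 9, and Arntl is lower in OC than in YC but higher in OE than in YE.

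The 12 largest rises came from several functions and were smaller than the falls. Cyfip2, a member of the complex that starts branched actin, was at 22.2, 16 and 17.9 FPKM in YC and 40.3, 44.4 and 48.8 FPKM in OC, the largest rise with a log2 fold change of 1.28 (SE 0.16, limma adjusted p = 0.00728). Amph, an amphiphysin of membrane curvature, went from 0.776, 0.576 and 0.618 FPKM to 2.54, 2.64 and 3.76 FPKM. Cds1, which makes the precursor of phosphatidylinositol, went from 0.773, 1.3 and 0.551 FPKM to 3.00, 3.96 and 3.07 FPKM. For these 3 genes the OC libraries were all well above the YC libraries, and each passed without each library in turn.

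Further rises belong to signalling at the membrane. Kcnj3, a subunit of the potassium channel that opens with G protein signals in heart and brain, was nearly absent in YC, at 0.0331, 0.0369 and 0.0831 FPKM, and was at 1.58, 1.22 and 1.28 FPKM in OC. It had the smallest adjusted p of the named genes (log2 fold change 1.11, SE 0.06, limma adjusted p = 0.000262). Gnal, a stimulatory G protein alpha subunit, rose from 1.18, 1.24 and 1.02 FPKM to 3.63, 2.99 and 3.40 FPKM, and Prkcz, an atypical protein kinase C, from 0.916, 0.628 and 1.01 FPKM to 2.24, 3.22 and 2.80 FPKM. Rasd2, a small GTPase, rose by 1.14 and Slc6a17, a transporter of neutral amino acids known from synaptic vesicles, by 0.90 on the log2 scale. Amy1, which encodes an amylase, was at 25.2, 28.8 and 32.4 FPKM in YC and 61.6, 55.4 and 47.4 FPKM in OC. Amylase genes are close copies of each other, so reads may be split between them and this value is uncertain. BC048679, Ttc25 and Nqo1, an antioxidant gene described below, completed the 12, with log2 fold changes of 1.10, 1.01 and 0.97. BC048679 was called in 1 of the 6 fits that left out a library, the one without YC replicate 2.

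Of 26 genes of calcium handling and excitation, 2 rose, Kcnj3 and Pln. Pln, the phospholamban that restrains the calcium pump of slow fibers and the heart, was at 6.54, 3.56 and 3.19 FPKM in YC and 6.65, 8.65 and 8.79 FPKM in OC, and the groups nearly touched. It was not called in 5 of the 6 fits that left out 1 library. Other genes best known from the heart were looked up after their values were seen. Ryr2, the calcium release channel of the heart, was at 0.0367, 0.0606 and 0.0228 FPKM in YC and 0.500, 0.484 and 0.398 FPKM in OC. Its log2 fold change was 0.48, which understates a rise from so low a level (adjusted p = 0.00149 from limma). Ctnna3, a catenin of the intercalated disc, rose from 5.62, 4.09 and 6.32 FPKM to 8.64, 10.3 and 10.3 FPKM, and Kcnd3, a potassium channel, from 0.0360, 0.0325 and 0.0314 FPKM to 0.191, 0.360 and 0.242 FPKM. All 3 had groups that were clear of each other, at levels that for Ryr2 and Kcnd3 stayed under 1 FPKM.

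Genes of the antioxidant response rose, though the list as a whole did not shift. The factor Nrf2 is known to switch on enzymes that reduce quinones and rebuild glutathione and peroxiredoxins. Of 25 such genes, 5 rose and none fell, against 2.89% and 1.47% of all genes, while the median log2 fold change was 0.04. Nqo1, which reduces quinones, was at 31.4, 22.1 and 25.7 FPKM in YC and 51.1, 48.1 and 50.5 FPKM in OC, a log2 fold change of 0.97 (SE 0.14, limma adjusted p = 0.0112). Srxn1, which repairs oxidised peroxiredoxins, rose by 0.84, from 18.9, 13.9 and 14.5 FPKM to 22.8, 32.4 and 28.5 FPKM. Gsta4, a glutathione transferase for lipid aldehydes, rose by 0.60, Gclm, a subunit of the first enzyme of glutathione synthesis, by 0.45, and Gsr, which regenerates glutathione, by 0.37. Nqo1 and Gsr passed without each library in turn, and the other 3 did not. Without YC replicate 2, 2 of the 25 genes were called, as was the case without OC replicate 4 or OC replicate 5.

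The promoters of Nqo1, Srxn1 and Gclm were matched in RefSeq and searched on both strands for the core of the antioxidant response element, TGACNNNGC, which is in 12.4% of all promoters, and for the form TGANTCAGC, which is in 1.19%. A site before the start is shown for the 2 genes that held one, 5′ to 3′ with the motif in capitals. In Gclm the capitals are the core read from the other strand.
Srxn1 chr2:152105449-152105517, plus strand: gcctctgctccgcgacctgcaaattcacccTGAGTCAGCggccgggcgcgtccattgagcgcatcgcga
Gclm chr3:122245393-122245461, plus strand: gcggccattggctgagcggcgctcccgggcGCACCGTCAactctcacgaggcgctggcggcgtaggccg
Nqo1 held neither in its window.

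Of 19 imprinted genes of growth, 3 fell, against 1.47% of all genes, and 16 were below 0. The 3 were Meg3 and Rian, long noncoding RNAs of one imprinted cluster on chromosome 12, and H19, a noncoding RNA that neighbours Igf2. Meg3 was at 6.64, 6.84 and 4.97 FPKM in YC and 2.12, 2.81 and 2.13 FPKM in OC, a log2 fold change of -1.03 (SE 0.15, limma adjusted p = 0.0118) that passed without each library in turn. H19 was the most abundant, at 864, 930 and 926 FPKM in YC and 551, 621 and 577 FPKM in OC, and fell by 0.57, as did Rian. The groups were apart for all 3 genes, but Rian was called in no fit that left out a library and H19 in 1 of 6. Igf2, picked after its values were seen, had a log2 fold change of 0.07 and did not pass.

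Genes that rise when a fiber loses its nerve were listed with genes of the neuromuscular junction. Of these 23 genes, 2 rose, against 2.89% of all genes called upward. Gadd45a, a stress gene that denervation is known to induce, was at 5.89, 5.20 and 5.20 FPKM in YC and 8.56, 10.9 and 7.22 FPKM in OC. Chrnd, a subunit of the acetylcholine receptor, was at 4.50, 3.67 and 4.83 FPKM in YC and 5.36, 6.39 and 6.31 FPKM in OC. The OC libraries were above the YC libraries for both genes, yet neither passed without YC replicate 2 (limma adjusted p = 0.0824 for Gadd45a and 0.0598 for Chrnd). Of 6 sarcomere genes of the embryo and newborn, none was called. Myh3, the embryonic myosin, was seen before it was picked. It was at 10.8, 10.4 and 9.64 FPKM in YC and 16.1, 19.7 and 25.4 FPKM in OC, and did not pass here (adjusted p = 0.0634 from limma).

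Among 21 atrophy genes and ubiquitin ligases, 1 rose, the ligase gene Cblb, with a log2 fold change of 0.27. The ligases best known from wasting muscle, Fbxo32 and Trim63, were picked for their fame and after their values were seen, and had log2 fold changes of -0.04 and -0.21 that did not pass. Of 25 genes of IGF and insulin signalling, 1 rose, Igf2r, which clears the ligand Igf2, at 21.0, 21.0 and 21.7 FPKM in YC against 25.8, 24.9 and 26.3 FPKM in OC. Of 23 genes of p53, growth arrest and senescence, Gadd45a and Sesn2 rose. Of 33 genes of apoptosis, 1 rose, Cidea, better known as a protein of lipid droplets, at 4.47, 4.47 and 4.85 FPKM in YC and 6.80, 7.46 and 8.07 FPKM in OC. Each of these lists thus held 1 or 2 calls, all rises, against 2.89% of all genes called upward, with medians between -0.05 and 0.07. Without YC replicate 2, Cblb and Igf2r did not pass (limma adjusted p = 0.0588 and 0.0713), nor did Gadd45a, while Cidea and Sesn2 did. Sesn2 in turn did not pass without OC replicate 3, OC replicate 5, YC replicate 1 or YC replicate 3.

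Of 20 satellite cell genes and myogenic regulators, 2 fell, against 1.47% of all genes. Chodl, a lectin of unclear role in muscle, was at 7.99, 12.3 and 7.95 FPKM in YC and 3.01, 2.37 and 3.55 FPKM in OC, a log2 fold change of -1.36 that passed without each library in turn. Megf10, a receptor of satellite cells, fell by 0.22 but not without YC replicate 2 (limma adjusted p = 0.117). Pax7, which defines these cells and was seen before it was picked, was at 1.17, 1.11 and 1.10 FPKM in YC and 0.882, 0.712 and 0.927 FPKM in OC, and did not pass (adjusted p = 0.339 from limma). Of 27 genes of the cell cycle, 1 rose, Bub1b, a checkpoint kinase, at 0.501, 0.307 and 0.330 FPKM in YC and 0.784, 0.659 and 0.985 FPKM in OC, which did not pass without YC replicate 2 (limma adjusted p = 0.0526) or OC replicate 3. Of the 18 muscle-secreted factors, Il15, a cytokine made by muscle, rose from 1.24, 2.16 and 2.16 FPKM to 3.45, 3.99 and 3.24 FPKM, and Sparc fell. Il15 passed in 1 of the 6 fits that left out a library, the one without YC replicate 3.

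The contractile and energy genes, which make up most of the messenger of a fiber, showed almost no calls. None of 12 slow and none of 14 fast contractile genes was called, with median log2 fold changes of 0.03 and -0.18. Summed levels of 12 genes that define muscle fibers overlapped between the groups. Of 37 genes of respiratory complex I and 41 of complexes II to V, none was called, although 29 and 31 of these were below 0. Of 34 genes of fatty acid uptake and oxidation, 1 fell, Plin5, which ties lipid droplets to mitochondria. It was at 38.3, 41.1 and 34.1 FPKM in YC and 26.3, 20.9 and 23.2 FPKM in OC, with a log2 fold change of -0.68, and did not pass without YC replicate 2 (limma adjusted p = 0.0804). Of 28 genes of glycolysis and glycogen, Amy1 alone was called, and of 15 genes of polyamine metabolism none was. Of 31 genes of the unfolded protein response and heat shock, 2 fell: Creb3l1, a factor that is known to induce collagen genes, by 0.63 on the log2 scale and Calr, a calcium-binding chaperone, by 0.30. Creb3l1 passed without each library in turn, and Calr did not pass without YC replicate 2 (limma adjusted p = 0.0824).

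Markers of other cells in the muscle gave few calls, against shares of 2.89% of all genes called upward and 1.47% downward. Of 24 macrophage and MHC class II genes, 23 were below 0, with a median log2 fold change of -0.34 and a summed level of 181.9 to 203 FPKM in YC and 95.82 to 138.2 FPKM in OC. Of these, 1 was called, Lyz1, a lysozyme, at 2.64, 4.37 and 2.41 FPKM against 0.853, 0.829 and 0.812 FPKM, and it was called in no fit that left out a library. Cd74, which escorts MHC class II proteins, was at 28.6, 35.3 and 33.2 FPKM in YC and 17.7, 9.81 and 15.4 FPKM in OC, and did not pass (adjusted p = 0.0861 from limma). The groups were clear of each other for both genes, and the study had listed Cd74 from these same samples. The 13 lymphocyte genes summed to at most 1.77 FPKM in any of the 6 libraries, with Cd3g at 0, and none of them or of 28 interferon-induced genes was called.

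Of 18 endothelial genes 1 fell, Tie1, a receptor of vessel lining, by 0.57 on the log2 scale, with a median of -0.33 for the list. It summed to 571.4, 818.7 and 572.1 FPKM in YC and 481.9, 469.5 and 541.9 FPKM in OC. No gene of 13 of pericytes and smooth muscle was called, and of 16 genes of Schwann cells 1 fell, Egr2, the factor of myelination, by 0.33. Without YC replicate 2, neither Tie1 nor Egr2 passed (limma adjusted p = 0.0589 and 0.0675), and the median of the endothelial genes was -0.20. Of 20 adipocyte genes, 17 were below 0, with a median of -0.54 that was -0.11 without YC replicate 2, and the 1 gene called was a rise, Cidea, which also stands in the apoptosis list. The sums of the adipocyte genes were 2198 to 2240 FPKM in YC and 1845 to 2162 FPKM in OC. Car3 alone had a mean of 1526 FPKM in YC and 1580 FPKM in OC, so these sums say little of the other members. None of the 11 red blood cell genes was called, and its globin genes are near-identical copies whose values are uncertain. The part of these cells in the results of other lists was not tested.

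**Figure D4:**
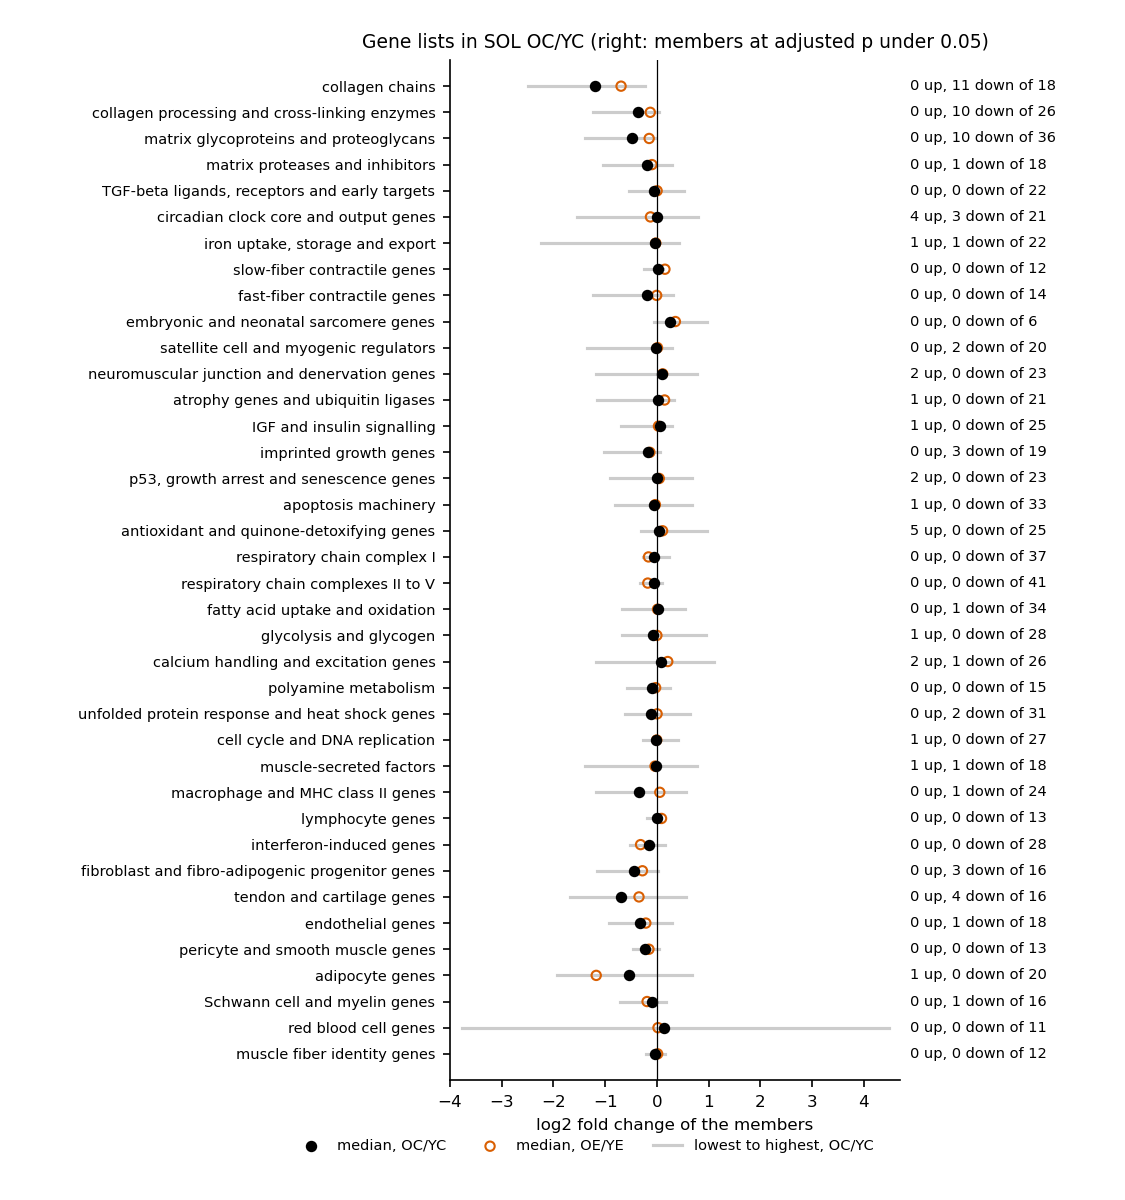
Median log2 fold change of each gene list in SOL OC/YC (filled) and SOL OE/YE (open), with a line from the lowest to the highest member in OC/YC and the numbers of members upregulated and downregulated in OC/YC at an adjusted p under 0.05 at the right. The collagen chains have the lowest median, -1.20, while the median over all genes is 0.

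The age difference was measured a second time in the trained mice, which are other animals and share no library with the control mice, although they share the fit. In OE/YE, 523 genes were called, 2.78% of all genes, with 376 upregulated and 147 downregulated, the falls making 0.782%. Of the 820 genes called in control mice, 756 had the same direction in OE/YE, which is 92.2%, and 261 were called there as well. The 261 are 31.8% of the calls of OC/YC and 49.9% of those of OE/YE. Among genes not called in OC/YC that differed from 0 in both comparisons, 65.2% had the same direction. Rises kept their direction in 517 of 543 genes and falls in 239 of 277.

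The matrix genes were lower in OE than in YE as well, with smaller values. The collagen chains had a median log2 fold change of -0.69, with 17 of 18 below 0 and 2 called, Col6a1 and Col6a2. The glycoproteins had a median of -0.15 with 27 of 36 below 0, and Fbn1 had a log2 fold change of -0.15 in OE/YE against -1.17 in OC/YC. Of the called falls, 254 of 277 were nearer 0 in OE/YE, and of the called rises 425 of 543 were, which is in part set by choosing the genes on OC/YC. Tfrc fell by 1.57 in OE/YE (adjusted p = 0.00718 from limma), Nqo1 rose by 0.99, Meg3 fell by 1.06, and Myh3 rose by 1.24 and passed there (adjusted p = 0.0372). These genes thus changed with age in both sets of mice or, for Myh3, in the trained set.

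The difference between the 2 age effects was tested for every gene, and none was called (0% of genes, limma), with a smallest adjusted p of 0.158. At an unadjusted p under 0.05 there were 1156 genes. Median scaling called 2 genes and a pseudocount of 0.1 FPKM 1 gene. Called in opposite directions in OC/YC and OE/YE were 3 genes, Arntl, Gstcd and Mir7682, named here because of these values. Gstcd, which has a glutathione transferase domain, was at 0.515, 0.583 and 0.466 FPKM in YC and 0.727, 0.661 and 0.639 FPKM in OC, then at 0.999, 0.881 and 0.781 FPKM in YE and 0.628, 0.583 and 0.649 FPKM in OE. Mir7682 is a short microRNA gene whose FPKM is set by very few reads. A lack of calls does not show that the age effects were equal.

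**Figure D5:**
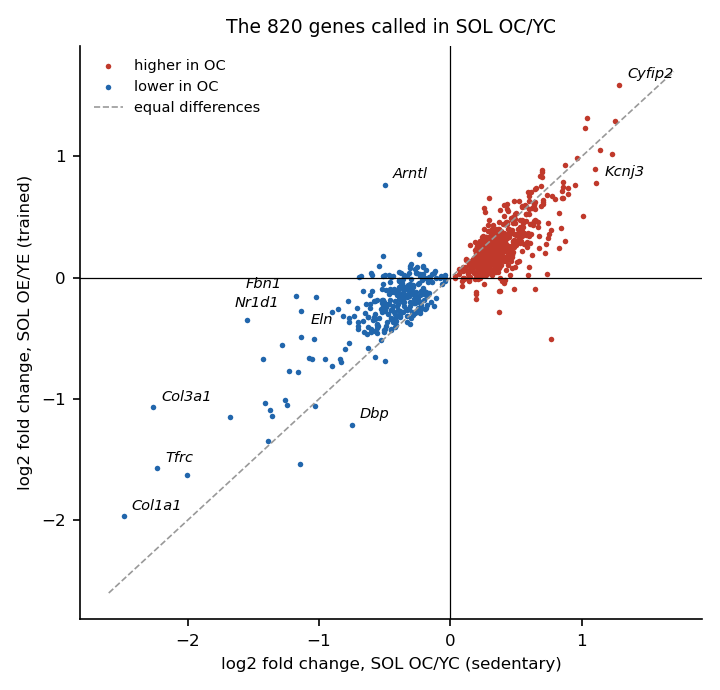
Log2 fold change of OC/YC on the horizontal axis against that of OE/YE on the vertical axis for the 820 genes called in OC/YC, with a dashed line where the values are equal. Most points, 756 of 820, lie in the quadrants of equal direction, and many falls lie nearer 0 in OE/YE.

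The same age difference was measured in the GAS libraries that carry the same mouse numbers. In GAS OC/YC 8 genes were called. The 12 slow-fiber contractile genes had a median log2 fold change of 2.11 there, with 0 below 0, against a median of 0.03 in SOL. The GAS groups thus also differed in slow-fiber messenger, and its part in the differences between the muscles was not tested. The test of the difference between the muscles, (SOL OC minus SOL YC) minus (GAS OC minus GAS YC), called 45 genes, 0.239% of all genes, with 31 above 0 and 14 below 0, and 28 of these were among the 820. Kcnj3 and Amph were above 0. Kcnj3 was at 0.112, 0.0640 and 0.0822 FPKM in GAS YC and 0.309, 0.284 and 0.620 FPKM in GAS OC, and the difference of the age effects was 0.75 on the log2 scale. Amph stayed at 0.356 FPKM or less in all of these GAS libraries, with a difference of 1.15. Ryr2 was at 0.0416 FPKM or less in them, and the difference passed for it as well (adjusted p = 2.43e-05 from limma). On the scale log2(FPKM + 1), the rises of these 3 genes were therefore larger in SOL than in GAS. For Ryr2 this does not show a larger proportional rise. Its mean went from 0.0400 to 0.461 FPKM in SOL and from 0.0024 to 0.0332 FPKM in GAS, where the scale flattens changes.

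Of the genes with a difference below 0, Cpne2, Kcnab1 and Dkk3 rose in GAS. Cpne2, a copine that binds membranes with calcium, was at 4.16, 4.03 and 2.89 FPKM in SOL YC and 3.14, 2.34 and 2.92 FPKM in SOL OC, whereas it went from 4.09, 5.09 and 3.44 FPKM to 19.2, 12.4 and 15.3 FPKM in GAS. Kcnab1, a subunit of potassium channels, and Dkk3, a secreted protein of the Dickkopf family, had the same pattern, with differences of -1.57 and -1.48 against -1.73 for Cpne2. The matrix lists gave 1 call in this test, Fbn2, another fibrillin, which fell in SOL, though not without OC replicate 3 or OC replicate 4, from 0.302 ± 0.123 to 0.0412 ± 0.0392 FPKM (SD, n = 3 each) and was at 0.0137 FPKM or less in every GAS YC and GAS OC library. The collagen chains had a median log2 fold change of -0.66 in GAS against -1.20 in SOL, and none of them was called for the difference. The macrophage and MHC class II genes had 2 of 24 below 0 in GAS, against 23 of 24 in SOL, and none was called for the difference.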

How the data were processed

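RNA of 24 muscle libraries was sequenced, 6 of which are compared here. The authors aligned reads with HISAT2 2.1.0 and quantified them with StringTie 1.3.4d on mm10 to give FPKM per gene, the first deposited unit. The second is log2(FPKM + 1), quantile normalized by the authors over all 24 libraries, and recomputing it came within 5e-09 of the deposited log2 values. The submitters' processing notes also name HISAT, Bowtie2, Bowtie, BWA, STAR and SAMtools without a role. Read counts were not used, so depth is unknown. The authors' 40 columns of comparisons, group means and SDs were not used. Symbols of 25 genes were restored from gene IDs, of which 18758 were found in GRCm38.p6.

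The log2 values of the 12 SOL libraries were fitted with limma 3.58.1 in R 4.3.3 as 4 group means with an intensity trend, two-sided, and p-values were Benjamini-Hochberg adjusted over 18795 genes. SOL and GAS were compared in a fit of all 24 libraries. The scripts were tested on simulated data. Rose, fell, called and passed mean an adjusted p under 0.05. The members, gene lists and tests were chosen with earlier results of these data known.

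Genes were named by this rule: the 12 largest rises and 12 largest falls among called genes with libraries that do not overlap and a mean of at least 1 FPKM, up to 6 called members per list (or, with fewer than 3, its most abundant members), the genes of the study's first table within the groups described, 5 soleus markers, and up to 6 genes of each test of a difference. Other genes are marked, and some genes that the rule takes are not reported here. Alternatives were no quantile normalization, median scaling, no intensity trend, a pseudocount of 0.1 FPKM, a filter of 1 FPKM in 3 libraries, the 6 libraries alone, old against young with training as a term, an equal-variance test of each gene, each library left out, and the mouse as a replicate block. The SOL and GAS libraries of a mouse number deviated together with correlations from -0.0345 to 0.358 over 12 numbers, so the block was not used in the fits reported.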

Additional observations from a re-analysis of the deposited data

Results flagged for a closer look

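The age effect differed between SOL and GAS for 45 genes at an adjusted p under 0.05 of the interaction (limma, 24 libraries). The difference of the log2 fold changes, SOL minus GAS, was 0.62 for Tgm5, a transglutaminase, 0.75 for Kcnj3 and 1.15 for Amph. Tgm5 was at 0.329, 0.293 and 0.304 FPKM in SOL YC and 0.868, 1.24 and 1.15 FPKM in SOL OC, and was listed at 0 in all 3 GAS YC libraries. The difference was -1.73 for Cpne2, -1.57 for Kcnab1 and -1.48 for Dkk3. Kcnab1 was at 1.28, 1.37 and 0.814 FPKM in GAS YC and 5.77, 4.37 and 6.92 FPKM in GAS OC, and Dkk3 at 2.68, 4.17 and 3.51 FPKM and 9.60, 10.1 and 15.2 FPKM. For both, the SOL groups overlapped. The cause of these differences was not tested.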

How the results depend on the processing

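None of the 81 named genes that were called changed sign under any alternative, 36 of all 179 named genes did, and 34 of the 81 were also called without each library in turn. The 820 genes of SOL OC/YC became 8 in a fit of these 6 libraries alone, 1 with the equal-variance test without moderation and 2334 with 6 old against 6 young and training as a term, the first 2 having fewer degrees of freedom and the last more libraries. Leaving out 1 library gave 292 to 837. The 264 DEGs became 983 with a pseudocount of 0.1 FPKM, which widens the differences of genes at low levels, and 197 to 383 with 1 library left out. The 523 genes of SOL OE/YE became 298 without quantile normalization (cause not tested), 6 in the fit of their 6 libraries and 0 with the equal-variance test, against 3438 at an unadjusted p under 0.05, and 117 to 418 with 1 library left out. The age effect by training had 0 calls, 2 with median scaling, 1 with a pseudocount of 0.1 FPKM and 0 to 4 with 1 library left out. The 45 genes of SOL minus GAS became 14 with the filter on low values, which removes genes under 1 FPKM, 22 with a pseudocount of 0.1 FPKM and 25 to 136 with 1 library left out, the highest without GAS YC replicate 3. With the replicate block for the mouse there were 55, including all 45. Without quantile normalization it was 39, with 14 above 0. The lymphocyte genes had no value with the filter. With 3 mice a group and depth unknown, small differences and genes under 1 FPKM are the least certain, and p-values cover the spread between these mice alone.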
